A study of Mus musculus with 119 samples.

Results

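The response of Map3k8[D270A] macrophages to 0.5 h of LPS was described from 12 RNA-seq libraries of a series that holds 107 others. The 12 libraries were chosen by their labels: 6 of unstimulated Map3k8[D270A] cells and 6 of Map3k8[D270A] cells after 0.5 h of LPS at 100 ng/ml. LPS is a bacterial lipopolysaccharide that activates the receptor TLR4. The comparison asks which genes LPS still raised when the kinase TPL-2, the product of Map3k8, had no catalytic activity.

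Below TLR4 the IκB kinase complex releases NF-κB dimers to the nucleus and also frees TPL-2 from NF-κB1 p105, which holds TPL-2 inactive in resting cells. Active TPL-2 phosphorylates MKK1/2, which activate ERK1/2, whereas NF-κB, JNK, and part of p38 signaling can proceed without it. Immediate early genes are switched on within minutes of a stimulus without new protein synthesis, and they include transcription factors, cytokines, and inhibitors of the same pathways.

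The cells were bone marrow–derived macrophages (BMDMs), grown for 7 days in medium conditioned by L cells and kept overnight in low serum before LPS. All groups used here came from mice of the strain C57BL/6(NIMR). The D270A allele is a point mutation carried by all cells of the mouse, and not a deletion of the gene. WT cells gave 6 libraries without LPS and 6 after 0.5 h of LPS, numbered 4 to 9. Cells of Nfkb1[SS/AA] mice, in which p105 cannot be phosphorylated by the IκB kinase, gave 6 and 6. WT cells given the MKK1/2 inhibitor PD0325901 at 0.1 µM for 10 min and then LPS for 0.5 h gave 6 libraries, and cells given the inhibitor alone for 40 min gave 3. The methods of the study call the libraries biological replicates. Whether each came from a separate mouse or culture is not stated there or in the labels. The age and sex of the mice are not stated either. The p values measure the spread between libraries, pooled over all groups of a fit and not only those compared.

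The unit is a normalized expression level on a log2 scale for each gene in each library. The levels are not divided by gene length, so levels are compared between libraries and not between genes. A gene was counted as higher or lower at an adjusted p below 0.05 (limma, Benjamini-Hochberg over 11884 genes) and a log2 difference of at least 1. That difference is 2-fold on a true log2 scale. The transformation behind the deposited scale is not named in the sources used here, and how far it drew differences together is unknown.

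All 9 macrophage markers were expressed in the 12 libraries, with a summed level of 18.59 to 18.72 without LPS and 18.54 to 18.70 with it. Of 10 neutrophil and precursor markers, 5 were below a linear value of 10 in all libraries, and the summed level was 9.20 to 10.07 without LPS and 9.12 to 10.06 with it. T and NK cell, dendritic cell, mast cell, and erythroid markers were all below that value. Among B cell markers only Cd79b exceeded it, and among fibroblast markers only Col1a2. No 2 libraries were identical. Map3k8 mRNA does not check the genotype, because the allele changes 1 codon. Its level in Map3k8[D270A] cells was 8.77 to 8.95 (median 8.82) without LPS and 9.64 to 9.81 (median 9.71) with LPS, a rise of 0.88 ± 0.05 (SE). In WT cells Map3k8 rose by 1.03 ± 0.05 (SE), and the difference of both rises was not significant (adjusted p = 1).

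LPS raised 53 genes in Map3k8[D270A] cells within 0.5 h (0.446% of the genes tested) and lowered 0. At an unadjusted p below 0.05, limma counted 973 higher and 513 lower. For all 53 genes, each of the 6 LPS libraries lay above each of the 6 unstimulated ones, as was so for 3.68% of all genes tested. The median rise of the 53 was 1.63, and the range was 1.03 to 3.78, against a median over all genes tested of -0.005. The 53 were chosen by their rise and p value in these same libraries. Their median, range, and lack of overlap are therefore a description. Map3k8[D270A] replicate 4 with LPS was well above the other 5 libraries for Cxcl2, Tnf, Socs3, Dusp2, Nfkbia, Maff, and Cd69, and without it 52 genes were higher, 51 of them among the 53. Maff (0.91) and Errfi1 (0.96) were then under the threshold and Osm (1.02) above it.

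**Figure D1:**
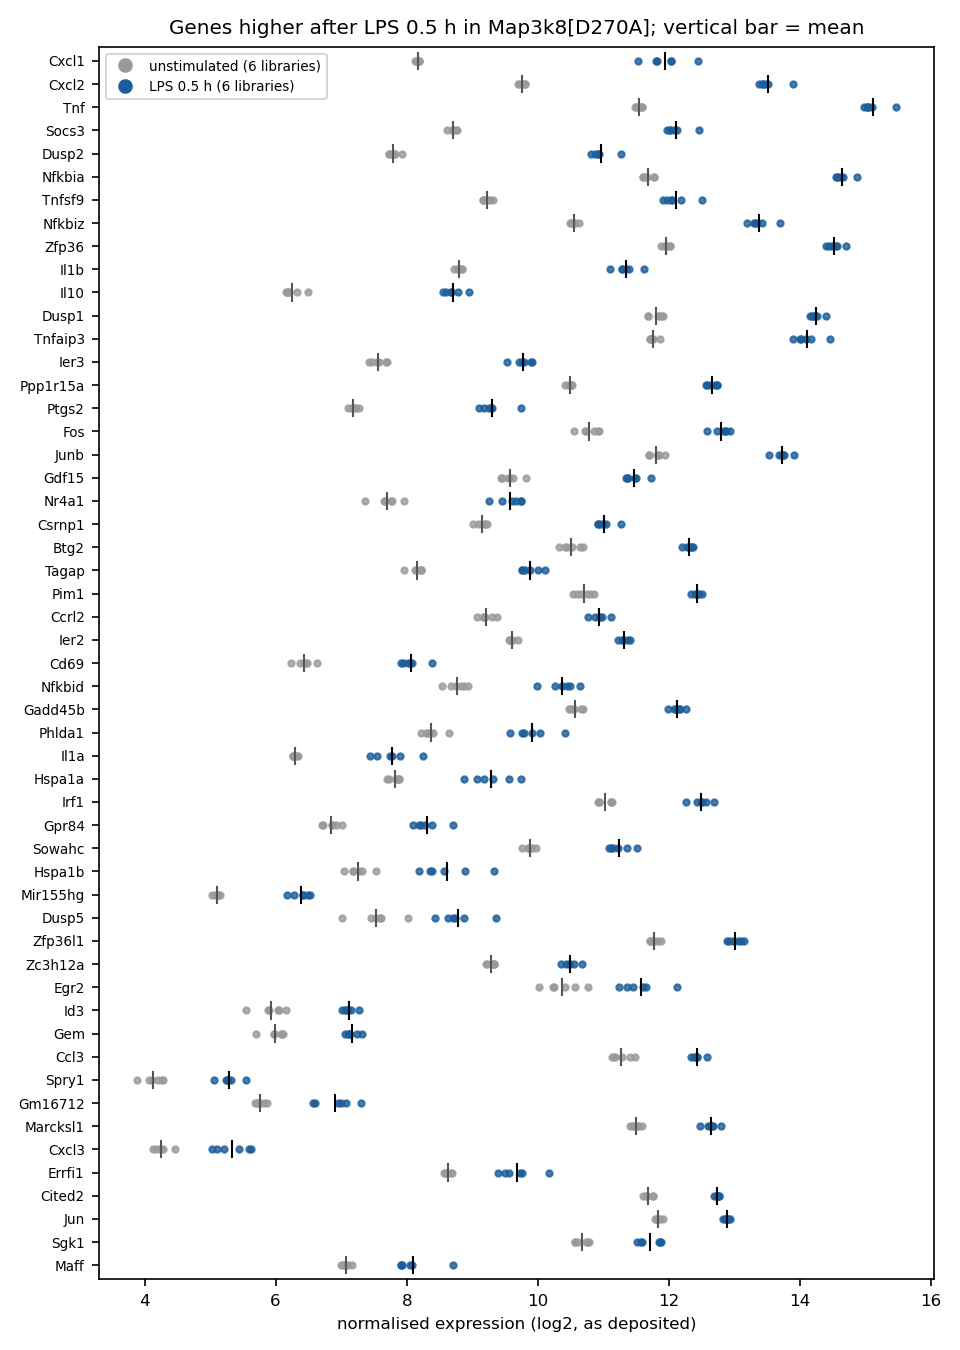
Expression level (log2, as deposited; horizontal axis) of the 53 genes that were higher in Map3k8[D270A] cells after 0.5 h of LPS, in order of their rise. Points are libraries (grey, 6 unstimulated; blue, 6 with LPS) and vertical bars are group means; the blue points of each gene lie to the right of all its grey points, from a rise of 3.78 for Cxcl1 to 1.03 for Maff.

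The largest rises were those of neutrophil-attracting chemokines. Cxcl1 (chromosome 5, 90891245 to 90893121, GRCm38.p6) was 8.13 to 8.19 (median 8.17) without LPS and 11.53 to 12.44 (median 11.93) with LPS, a log2 difference of 3.78 ± 0.13 (SE, adjusted p = 1.15e-30). Cxcl2 (chromosome 5, 90903899 to 90905938) went from 9.70 to 9.81 (median 9.77) to 13.37 to 13.89 (median 13.45), a difference of 3.76 ± 0.10 (SE, adjusted p = 1.07e-35). For both genes the gap between the groups was several times the spread within them. Cxcl3, another ligand of this family, started from low levels of 4.12 to 4.46 (median 4.25) and reached 5.03 to 5.62 (median 5.32), a difference of 1.08 ± 0.15 (SE, adjusted p = 1.34e-07). Ccl3, a chemoattractant of monocytes, rose by 1.16 ± 0.09 (SE). Of the 17 chemokines tested, 4 reached a difference of 1 and 9 passed the adjusted p, among them Ccl2 with 0.56 and Ccl4 with 0.88. Over all genes tested, 0.446% were higher by at least 1 and 3.91% were higher at the adjusted p alone. The same shares stand beside the counts of the lists below. The median difference of the chemokines was 0.56. Among the members that did not pass, Ccl6 stood at -0.07 and Cx3cl1 at -0.07.

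Tnf (chromosome 17, 35199367 to 35202007), the main early cytokine of macrophages, was 11.48 to 11.59 (median 11.55) without LPS and 14.98 to 15.47 (median 15.04) with it. Its rise was 3.57 ± 0.10 (SE, adjusted p = 6.03e-36). Tnfsf9, the ligand of the costimulatory receptor 4-1BB, rose by 2.88 ± 0.13 (SE), from a median of 9.21 to one of 12.04. Il1b, which encodes the precursor of IL-1β, rose by 2.54 ± 0.16 (SE), from 8.72 to 8.85 (median 8.80) to 11.10 to 11.62 (median 11.32). The anti-inflammatory cytokine Il10 rose by 2.45 ± 0.12 (SE), from a median of 6.20 to one of 8.68. Il1a rose by 1.48 ± 0.18 (SE). Of the 19 cytokines tested, these 5 reached a difference of 1 and 10 passed the adjusted p, with a median difference of 0.50. Il6 (0.09, adjusted p = 0.996) and Ifnb1 (0.02, adjusted p = 1) did not pass at this time.

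The inhibitors of NF-κB are themselves NF-κB target genes and form a negative feedback. Nfkbia, which encodes IκBα, was 11.60 to 11.77 (median 11.65) without LPS and 14.55 to 14.87 (median 14.60) with it, a rise of 2.97 ± 0.06 (SE, adjusted p = 1.61e-41). Nfkbiz, which encodes the nuclear regulator IκBζ, rose by 2.83 ± 0.10 (SE). Tnfaip3, which encodes the ubiquitin-editing enzyme A20, rose by 2.35 ± 0.12 (SE), from a median of 11.73 to one of 14.05. Nfkbid, which encodes the nuclear protein IκBNS, rose by 1.60 ± 0.12 (SE). These were the 4 of 20 NF-κB inhibitors and subunits that reached a difference of 1, and 6 passed the adjusted p. The subunit gene Nfkb1 stood at 0.04 (adjusted p = 0.948), and the median of the list was 0.11. Socs3, an inhibitor of cytokine receptor signaling through STAT3, stood outside the lists and rose by 3.41 ± 0.11 (SE), from 8.62 to 8.76 (median 8.70) to 11.97 to 12.47 (median 12.05).

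Some genes of mRNA decay and of MAP kinase feedback were among the 53. Zfp36, which encodes TTP, a protein that directs AU-rich cytokine mRNAs to decay, rose by 2.57 ± 0.09 (SE), from 11.88 to 12.02 (median 11.96) to 14.40 to 14.70 (median 14.52). Its paralog Zfp36l1 rose by 1.24 ± 0.06 (SE), and Zc3h12a, which encodes the RNase Regnase-1, rose by 1.21 ± 0.07 (SE). Of 15 genes of mRNA decay and translation control, 4 reached a difference of 1, 9 passed the adjusted p, and the median was 0.30. Among dual-specificity phosphatases, which dephosphorylate MAP kinases, Dusp2 rose by 3.16 ± 0.13 (SE), from 7.73 to 7.93 (median 7.79) to 10.82 to 11.27 (median 10.92). Dusp1 rose by 2.43 ± 0.08 (SE), from a median of 11.85 to one of 14.22, and Dusp5 by 1.25 ± 0.17 (SE). Of 19 MAP kinase feedback genes, 6 reached a difference of 1 and 9 passed the adjusted p, with a median of 0.15. The ERK phosphatase gene Dusp6 stood at 0.03 (adjusted p = 1) and Dusp7 at -0.08 (adjusted p = 0.743).

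Some transcription factors of the immediate early class were among the 53. Fos (chromosome 12, 85473890 to 85477274), a subunit of AP-1, was 10.56 to 10.94 (median 10.80) without LPS and 12.57 to 12.93 (median 12.85) with it, a rise of 2.02 ± 0.09 (SE, adjusted p = 6.58e-25). Its partners Junb and Jun rose by 1.92 ± 0.08 and 1.04 ± 0.09 (SE). The orphan nuclear receptor gene Nr4a1 rose by 1.89 ± 0.14 (SE) and Csrnp1 by 1.87 ± 0.11 (SE). Ier2 rose by 1.72 ± 0.07 (SE), from 9.56 to 9.71 (median 9.59) to 11.22 to 11.41 (median 11.31). Irf1, an activator of interferon-responsive genes, rose by 1.47 ± 0.09 (SE), and Egr2 by 1.20 ± 0.15 (SE). Of 31 such genes tested, 10 reached a difference of 1 and 20 passed the adjusted p, with a median of 0.55. Nr4a2 stood at -0.04 (adjusted p = 0.994) and Klf4 at 0.08 (adjusted p = 0.72).

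Among 20 genes of stress and growth arrest, 5 reached a difference of 1 and 14 passed the adjusted p, with a median of 0.54. Ier3, a regulator of survival, rose by 2.20 ± 0.11 (SE), and Ppp1r15a, which encodes GADD34, the subunit that directs dephosphorylation of eIF2α, by 2.17 ± 0.08 (SE). Ddit3 stood at -0.24 (adjusted p = 0.25). Of 26 signal receptors and their enzymes, 3 reached a difference of 1 and 13 passed the adjusted p, with a median of 0.34. Ptgs2, which encodes the prostaglandin synthase COX2, rose by 2.12 ± 0.19 (SE), from 7.10 to 7.27 (median 7.19) to 9.10 to 9.74 (median 9.26). The chemokine-binding receptor gene Ccrl2 rose by 1.72 ± 0.09 (SE) and the fatty acid receptor gene Gpr84 by 1.47 ± 0.14 (SE).

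The lists held 41 of the 53 genes. The remaining 12 were Socs3, Gdf15, Tagap, Cd69, Hspa1a, Sowahc, Hspa1b, Mir155hg, Gem, Gm16712, Marcksl1, and Cited2. Hspa1a and Hspa1b are near-identical copies, and how their reads were divided is uncertain. Mir155hg, the host gene of miR-155, rose by 1.28 ± 0.25 (SE) from a low median level of 5.11. Of the 24 genes of the type I interferon response, 0 passed the adjusted p of limma in Map3k8[D270A] cells (unadjusted p below 0.05: 0 higher and 1 lower), and the median was 0.01. Of all genes tested, 3.91% were higher at the adjusted p alone. Of 43 genes that encode the pathway from TLR4 to the MAP kinases, Map3k8 and Mapk8 (0.19) passed as higher and Tab1 (-0.18) as lower, with a median of 0.006. The share of higher genes in this list was near that of all genes.

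Without the threshold on size, 465 genes were higher (3.91%) and 139 lower (1.17%) in Map3k8[D270A] cells. The genes just inside the threshold were Maff (1.03), Sgk1 (1.04), and Jun (1.04), and among those just outside were Osm (0.99) and Plk2 (0.98). The falls were small, with a median of -0.20 and a lowest value of -0.76, and the groups did not overlap for 79 of the 139 genes, which were chosen by their p values. Over all genes tested, 1.11% had all LPS libraries below the unstimulated ones. In WT cells 113 of the 139 were also lower, out of 453 lower there (3.81%). The naming rule gave no falling gene, since 0 reached a fall of 1, and those below were named after their values were seen. Snhg20, a host gene of small nucleolar RNAs, went from 5.17 to 5.64 (median 5.39) to 4.29 to 4.88 (median 4.73), a fall of 0.76 on the log2 scale. Tsc22d3, which encodes the glucocorticoid-induced protein GILZ, went from 9.91 to 10.53 (median 10.24) to 9.16 to 9.83 (median 9.66), a difference of -0.63 ± 0.12 (SE, adjusted p = 0.000184). Txnip, an inhibitor of thioredoxin, stood at -0.41. Of 30 short-lived resting transcripts, 4 passed as higher and 3 as lower.

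Promoter sequences were available in the RefSeq table (GRCm38.p6) for 46 of the 53 genes, and the 250 bases before each annotated start were searched on both strands for 4 motifs. The sequences shown are examples from genes described here, and they were chosen after the matches were seen. Other genes of the 53 with a match are not shown. Each is written 5′ to 3′ on the strand of the gene, with the matched motif in capitals and 8 bases on each side.
Cxcl1, chr5:90891166-90891192, plus strand, κB consensus: tgtactccGGGAATTTCCCtggcccgg
Cxcl2, chr5:90903794-90903820, plus strand, κB consensus: tgagctcaGGGAATTTCCCtggtcccc
Cxcl3, chr5:90786020-90786046, plus strand, κB consensus: gctgcgggGGGAATTTCCCcagcccgg
Nfkbia, chr12:55492659-55492684, minus strand, κB consensus: actggcttGGAAATTCCCcgcgcctg
Ier3, chr17:35821613-35821638, plus strand, κB consensus: cgaagggcGGAGTTCCCCccggcccg
Egr2, chr10:67537486-67537511, plus strand, CArG box: gatcttctCCTTTTTTGGaaagtctc
Egr2, chr10:67537789-67537814, plus strand, CArG box: tcctcagtCCATATATGGgcagcgac
Zfp36, chr7:28379269-28379294, minus strand, CArG box: aggccgccCCATAAAAGGagaaagct
Btg2, chr1:134079306-134079329, minus strand, TGACGTCA: cccaataaTGACGTCAgtgagcga

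The 3 Cxcl promoters carry the same run of capitals, in which matches on both strands overlap. Both Egr2 sequences lie at the same distance from 2 different annotated starts. The κB consensus, a site of the kind NF-κB binds, was in 11 of the 46 promoters (23.9%) against 4.46% of 27025 RefSeq genes with a promoter in the table and 5.46% of the 9153 of them that were tested here. The CArG box, the site of the serum response factor, was in 3 (6.52%) against 1.62% and 1.28%. The cyclic AMP response element TGACGTCA was in 6 (13%) against 1.77% and 3.19%. The AP-1 site TGANTCA, which TGACGTCA does not contain, was in 4 (8.7%) against 7.82% and 5.54%. These are matches of letters in 1 window, not measured binding.

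In WT cells LPS raised 74 genes (0.623%) and lowered 0 by the same rule (unadjusted p below 0.05 in limma: 1541 higher and 1326 lower). All 53 genes of Map3k8[D270A] cells were among the 74. The other 21 stayed under a rise of 1 in Map3k8[D270A] cells, and 20 of them still passed the adjusted p there, the exception being Sele (0.66 ± 0.26 (SE), adjusted p = 0.163). The 74 genes were chosen by their rise in WT cells, 21 of them through that group alone, and this choice leans toward a smaller rise in Map3k8[D270A] cells. The values over the 74 are therefore a description. The median rise was 1.27 in Map3k8[D270A] and 1.78 in WT cells. The rise was smaller in Map3k8[D270A] cells for 72 of the 74, and larger for Socs3 (difference 0.02) and Spry1 (difference 0.15). The median difference of the 74 was -0.39, against -0.003 over all genes tested. As a share of the WT rise on the log2 scale, the median gene kept 77.8%, and the range was 14.3% for Egr1 to 115.1% for Spry1. Of the 53 genes, which also passed by their rise in Map3k8[D270A] cells, 51 had a smaller rise there, with a median difference of -0.42. The count of smaller rises and the median difference of the 74 moved with the WT libraries used. With WT 4 to 6, 47 or 37 of the 74 genes had a smaller rise (medians -0.08 and 0.005, for Map3k8[D270A] 1 to 3 and 4 to 6). With WT 7 to 9, 73 or 74 did (medians -0.78 and -0.66). The share of the WT rise and the values over the 53 genes were not split by WT set.

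**Figure D2:**
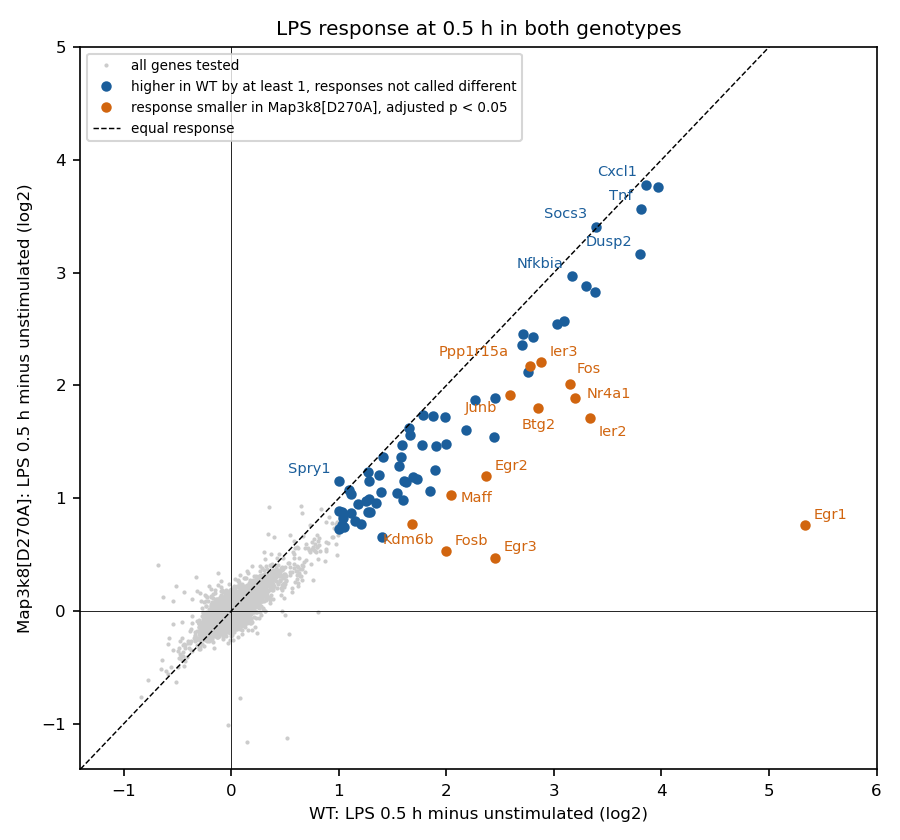
LPS response at 0.5 h (log2 difference from unstimulated cells) in WT cells (horizontal axis) and in Map3k8[D270A] cells (vertical axis), 1 point per gene. Grey points are all genes tested, blue points are genes higher by at least 1 in WT cells, orange points are the 13 genes with a smaller response in Map3k8[D270A] cells (adjusted p below 0.05), and the dashed line marks equal responses; 72 of the 74 coloured points lie under the line, a position that their choice by the WT rise favours, and Egr1 lies farthest from it at 5.34 in WT and 0.76 in Map3k8[D270A] cells.

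The difference of the responses itself was tested as an interaction. It was lower in Map3k8[D270A] cells by at least 1 for 9 genes (0.0757%) and higher for 0 (unadjusted p below 0.05 in limma: 174 lower and 75 higher). At the adjusted p alone, 13 genes were lower (0.109%) and 0 higher. All 13 were among the 74 genes raised in WT cells, and 9 of them belonged to the list of immediate early transcription factors. Ier3 and Ppp1r15a belonged to stress and growth arrest, Btg2, which encodes an antiproliferative cofactor of mRNA deadenylation, to mRNA decay, and Kdm6b, which encodes a histone H3K27 demethylase, to signal receptors and their enzymes. In the lists of NF-κB inhibitors, cytokines, chemokines, and MAP kinase feedback, 0 genes passed in limma, while 7 of 20, 6 of 19, 2 of 17, and 7 of 19 were lower at an unadjusted p below 0.05. Over all 11884 genes tested, 174 were lower at that unadjusted p. The 0 at the adjusted p moved with the WT libraries used. Against WT 4 to 6 alone, 0 of each list passed in limma with Map3k8[D270A] 1 to 3 or 4 to 6 (0.0505% and 0.0589% of all genes). Against WT 7 to 9 alone, 3, 2, 0, and 4 passed with Map3k8[D270A] 4 to 6 (0.421% of all genes). There, 8, 6, 2, and 5 passed with Map3k8[D270A] 1 to 3 (0.791%).

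Egr1, a zinc finger factor and a classical target of ERK1/2 signaling, differed most. Its level in Map3k8[D270A] cells was 7.99 to 8.39 (median 8.14) without LPS and 8.66 to 9.15 (median 8.90) with it, and in WT cells 7.70 to 8.33 (median 8.02) and 13.02 to 14.27 (median 13.17). The LPS libraries of both genotypes were thus far apart while the unstimulated ones overlapped, and the rise was smaller by 4.58 ± 0.19 (SE, adjusted p = 5.05e-26). The rise of 0.76 in Map3k8[D270A] cells was itself significant (adjusted p = 5.19e-05), with no overlap of the groups. It passed in 20 of the 21 alternatives that could change the value or its p, of which 12 left out 1 library. It did not pass with replicates 4 to 6 alone (0.88, adjusted p = 0.0968).

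Egr3, a relative of Egr1, was 7.60 to 8.13 (median 7.80) in unstimulated Map3k8[D270A] cells and 8.12 to 8.52 (median 8.22) after LPS, and the groups overlapped. In WT cells it was 6.81 to 7.20 (median 6.96) and 8.95 to 10.03 (median 9.44). The response differed by -1.98 ± 0.19 (SE, adjusted p = 5.86e-11). Egr3 started higher in the mutant cells, by 0.82 (adjusted p = 6.88e-05), and with LPS it differed by -1.16 (adjusted p = 9.14e-09), so the interaction holds both differences. Of the 74 genes, only Egr3 and Cebpb differed without LPS at an adjusted p below 0.05, and Cebpb was lower in Map3k8[D270A] cells (-0.63, adjusted p = 0.00213).

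Ier2 reached 12.81 to 13.22 (median 13.01) in WT cells with LPS, above all Map3k8[D270A] libraries, and its response differed by -1.62 ± 0.10 (SE, adjusted p = 1.9e-17). Fos reached 13.59 to 13.99 (median 13.86) in WT cells, and its response differed by -1.14 ± 0.13 (SE, adjusted p = 3.43e-08). For these genes the Map3k8[D270A] rise was a fraction of the WT rise, 51.4% for Ier2 and 64.0% for Fos on the log2 scale. Fosb, another AP-1 subunit, rose by 0.53 ± 0.14 (SE) in Map3k8[D270A] and 2.00 ± 0.14 (SE) in WT cells, a difference of -1.47 ± 0.20 (SE, adjusted p = 2.98e-06). Nr4a1 differed by -1.31 ± 0.19 (SE, adjusted p = 1.43e-05), Egr2 by -1.17 ± 0.21 (SE, adjusted p = 0.000856), and Btg2 by -1.06 ± 0.08 (SE, adjusted p = 9.87e-14). Maff, a small Maf protein, differed by -1.01 ± 0.19 (SE, adjusted p = 0.00248) and Kdm6b by -0.90 ± 0.20 (SE, adjusted p = 0.0283). Ier3, Junb, and Ppp1r15a differed by -0.68, -0.68, and -0.61. With the replicate number as a block, Kdm6b no longer passed (adjusted p = 0.0725). In a limma fit of only the libraries compared, 7 genes were lower by at least 1, and Egr2 (adjusted p = 0.262), Maff (0.58), and Kdm6b (0.917) did not pass. Over the 35 alternatives that could change this difference or its p, Egr1, Egr3, Ier2, and Btg2 passed in 35, Fos and Fosb in 34, Junb, Maff, Nr4a1, and Ppp1r15a in 33, and Egr2 in 30. Ier3 passed in 22 and Kdm6b in 18, and without a filter on low values both stood at an adjusted p of 0.0537. Of the 35 alternatives, 24 left out 1 library of the same fit, so these counts do not stand for independent tests. Phlda1 (-0.90, adjusted p = 0.0535) and Jun (-0.50, adjusted p = 0.0815) missed the threshold.

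**Figure D3:**
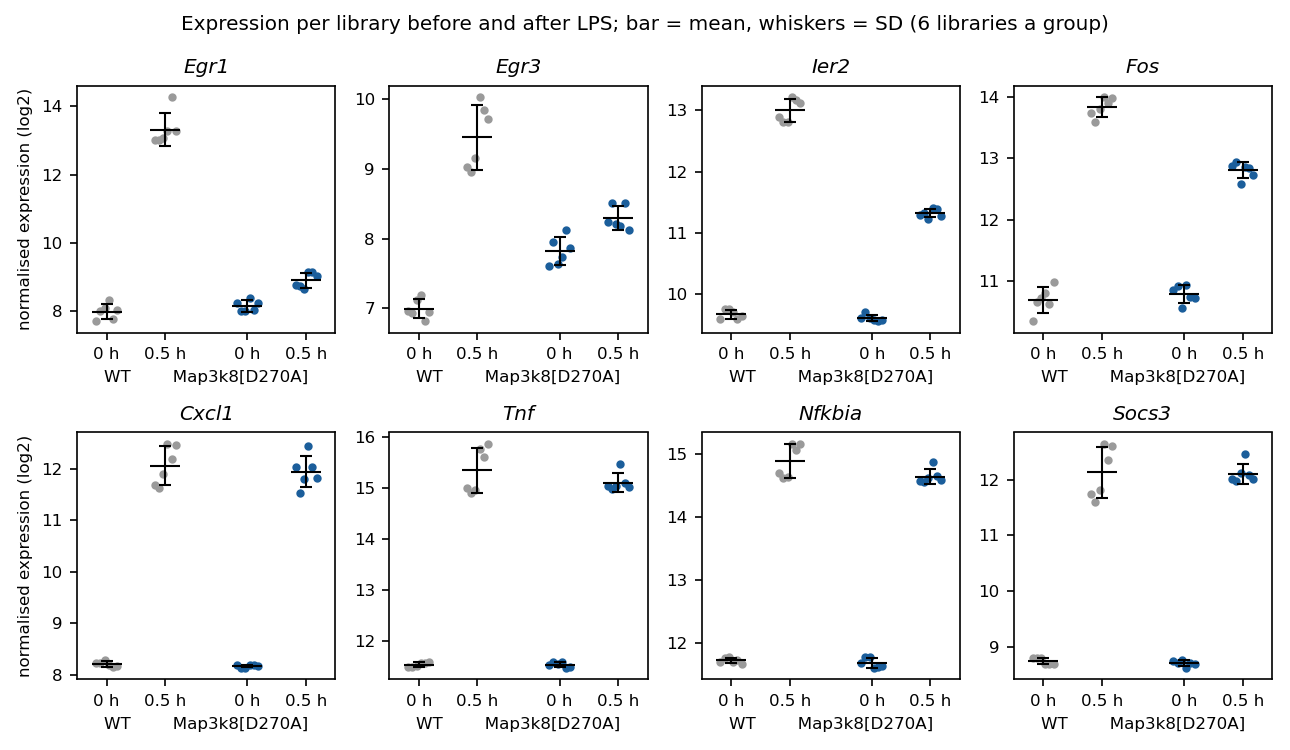
Expression level (log2) per library at 0 and 0.5 h of LPS in WT (grey) and Map3k8[D270A] (blue) cells for 4 genes with a smaller response in Map3k8[D270A] cells (upper row) and 4 of the genes most raised in them (lower row). Points are libraries, long bars are means and whiskers are SD (6 libraries a group); the Egr1 LPS libraries reach 13.02 to 14.27 in WT and 8.66 to 9.15 in Map3k8[D270A] cells, whereas those of Cxcl1, Tnf, Nfkbia, and Socs3 overlap between genotypes.

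At the other end, the 5 genes raised in both genotypes with the difference nearest 0 and a 95% interval inside 0.5 of 0 were Socs3, Cxcl3, Cd69, Zfp36l1, and Tagap. They were chosen by that value, which is therefore a description. The interval of Socs3 was -0.30 to 0.33, that of Cxcl3 -0.43 to 0.39, and that of Cd69, an early activation antigen of leukocytes, -0.44 to 0.39. The interval of Zfp36l1 was -0.22 to 0.13, and that of Tagap -0.31 to 0.21. These intervals are from all replicates. Over 35 alternatives the difference of Socs3 ranged from -0.55 to 0.59 and that of Tagap from -0.54 to 0.44. Socs3 passed as lower in 1 of them, Map3k8[D270A] 1 to 3 against WT 7 to 9 (-0.55, adjusted p = 0.0208 in limma). In all, 20 of the 74 genes had an interval inside 0.5 of 0, of which 14 were raised by at least 1 in both genotypes. A missing call does not show an equal response: Cxcl1 differed by -0.07 ± 0.19, Tnf by -0.24 ± 0.13, Nfkbia by -0.20 ± 0.09, and Dusp2 by -0.64 ± 0.19 (SE).

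The libraries of each genotype were split into 2 sets by the order of their replicate numbers, and Map3k8[D270A] 1 to 3 were set against WT 4 to 6 and Map3k8[D270A] 4 to 6 against WT 7 to 9. The labels do not tie the numbers of one genotype to those of the other and name no batch. The Map3k8[D270A] response was alike in both sets, with a median over the 74 genes of 1.24 and 1.32, and 50 of the 53 genes were called in each. The WT response was not, with medians of 1.39 and 2.30. The median difference over the 74 genes was therefore -0.08 in the first set, where 47 of 74 were smaller in Map3k8[D270A] cells, and -0.66 in the second, where 74 of 74 were. With the sets crossed, a choice made after seeing the data, the median difference was -0.78 for Map3k8[D270A] 1 to 3 against WT 7 to 9, and 0.005 for Map3k8[D270A] 4 to 6 against WT 4 to 6. The size of the difference thus moved with the WT set. What sets the WT libraries apart was not tested.

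The 13 genes were chosen for a smaller response in these same libraries, so their sign in each set is a description and no independent support. Their medians were -0.79 and -1.49. Egr1 differed by -4.46 and -4.69, Ier2 by -1.51 and -1.73, Btg2 by -0.92 and -1.19, and Fos by -1.12 and -1.15. In the first set alone, Egr1, Egr3, Ier2, Btg2, and Maff passed the adjusted p, and Fos (adjusted p = 0.107) and the 7 others did not. In the second, 12 of the 13 passed, Egr2 (adjusted p = 0.492) being the exception, and Egr2 did not pass in the first either (adjusted p = 0.196). In the crossed sets their medians were -1.64 and -0.73, and 12 and 6 of them passed. Jun passed in both sets, at -0.46 (adjusted p = 0.00868) and -0.55 (adjusted p = 0.00925).

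Over the 74 genes, 6 were lower in the first set at an adjusted p below 0.05 and 30 in the second. Over all genes tested, 0.0505% were lower in the first set and 0.421% in the second. In the second set these included 3 of the 20 NF-κB inhibitors and subunits, 2 of the 19 cytokines, 0 of the 17 chemokines, and 4 of the 19 MAP kinase feedback genes, and in the first set 0 of each in limma (unadjusted p below 0.05: 1, 3, 3, and 6 lower, against 1.98% of all genes; in the second set 11, 10, 6, and 6, against 4.17%). Nfkbiz differed by -0.89 (adjusted p = 0.00791) and Tnfaip3 by -0.71 (adjusted p = 0.0353) in the second set. Il1b differed there by -1.12 (adjusted p = 0.0186), Il1a by -1.14 (adjusted p = 0.00837), and the phosphatase genes Dusp1 and Dusp2 by -0.61 (adjusted p = 0.00758) and -1.10 (adjusted p = 0.00822). In the crossed sets, 8, 6, 2, and 5 genes of these lists passed against WT 7 to 9 (0.791% of all genes tested; 10, 11, 8, and 8 at an unadjusted p below 0.05, against 3.44%), and 0 of each against WT 4 to 6 (0.0589% of all genes) in limma (unadjusted p below 0.05: 0, 2, 1, and 3 lower, against 2.63%). Tnf differed by 0.004 and -0.49, and Cxcl1 by 0.15 and -0.30. Of the 5 genes nearest 0, Zfp36l1 kept its sign (-0.002 and -0.08), whereas Socs3 (0.37 and -0.34), Cxcl3 (0.33 and -0.37), Cd69 (0.18 and -0.23), and Tagap (0.18 and -0.28) changed theirs.

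**Figure D4:**
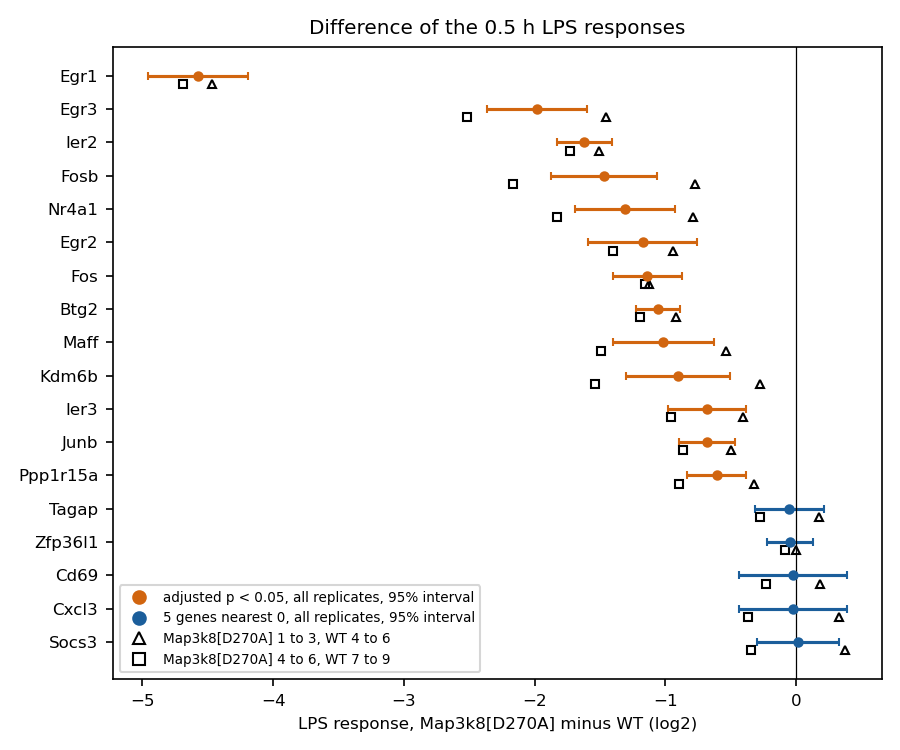
Difference of the 0.5 h LPS responses, Map3k8[D270A] minus WT (log2; horizontal axis), for the 13 genes with an adjusted p below 0.05 (orange) and the 5 genes raised in both genotypes with the difference nearest 0 (blue). Filled points with bars are estimates from all replicates with 95% intervals, open triangles are Map3k8[D270A] replicates 1 to 3 with WT 4 to 6 and open squares are Map3k8[D270A] 4 to 6 with WT 7 to 9; the 13 genes were chosen as negative over the same libraries, and range from -4.58 for Egr1 to -0.61 for Ppp1r15a over all replicates.

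The arms blocked 1 step downstream and 1 step upstream of TPL-2 were set beside these values. In the labels they carry the names of other experiments, and in the fit of all libraries 11971 genes were tested. LPS in the presence of PD0325901 raised 70 genes (0.585%) and lowered 32 (0.267%) against the inhibitor alone for 40 min. With the inhibitor alone for 10 min as the control, a choice made after seeing the data, 72 were raised, 59 of them among the 70, and 8 were lowered, 0 of them among the 32. With 70 min, 27 of the 32 were lowered again. LPS in Nfkb1[SS/AA] cells raised 87 genes (0.727%) and lowered 1 (0.00835%). Of the 53 genes raised in Map3k8[D270A] cells, 48 were among the 70 raised with PD0325901 and 48 among the 87 raised in Nfkb1[SS/AA] cells. Cxcl1 rose by 3.55 with PD0325901 and 3.71 in Nfkb1[SS/AA] cells, Tnf by 3.97 and 4.13, and Socs3 by 3.60 and 3.48. Egr1 rose by 0.76 in Map3k8[D270A] cells, 1.94 with PD0325901, 3.12 in Nfkb1[SS/AA], and 5.34 in WT cells.

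Against PD0325901, the response of Map3k8[D270A] cells was higher by at least 1 for 31 genes (0.259%) and lower for 6 (0.0501%). The 6 were Phlda1 (-1.30), Myc (-1.22), Mir684-1 (-1.21), Egr1 (-1.18), Rgs1 (-1.06), and Fos (-1.04). With LPS, Map3k8[D270A] and PD0325901-treated means were 9.92 and 10.13 for Phlda1, 10.6 and 10.82 for Myc, and 2.96 and 4.25 for Mir684-1. They were 8.91 and 8.84 for Egr1, 13.05 and 13.1 for Rgs1, and 12.8 and 12.49 for Fos. Without LPS (inhibitor alone for 40 min), they were 8.37 and 7.285 for Phlda1, 9.84 and 8.84 for Myc, and 2.97 and 3.06 for Mir684-1. For Egr1 they were 8.15 and 6.91, for Rgs1 12.52 and 11.51, and for Fos 10.79 and 9.43. With the control of 10 min, 4 genes were higher, 0 of them among the 31, and 0 lower (unadjusted p below 0.05 in limma: 631 higher and 446 lower), with Egr1 at -0.28 (adjusted p = 0.796) and Fos at 0.27 (adjusted p = 0.698). Egr1 had a mean of 7.80 after 10 min, 6.91 after 40 min, and 6.89 after 70 min of PD0325901 alone, and 8.15 in unstimulated Map3k8[D270A] cells. The difference between these controls was not tested. Of the 31 higher genes, 30 were not among the 74, and several stood out in the libraries of inhibitor alone at 40 and 70 min (3 at 40 min). Among these are genes known from glial cells: Fabp7 had a mean of 2.91 at 10 min, 7.44 at 40 min, and 7.77 at 70 min, Gpm6b 2.53, 4.57, and 4.52, Slc1a3 1.70, 3.94, and 4.01, Olig1 0.75, 3.45, and 4.42, and Sparcl1 0.76, 3.31, and 4.91. In Map3k8[D270A] cells with LPS, Fabp7 was at 2.72 and Olig1 at 0.80. The part of these libraries in the 31 calls was not tested beyond the change of control, and 29 of the 31 were called again with the control of 70 min. The remaining one was Spry1, an inhibitor of receptor tyrosine kinase signaling, at 1.16 with the control of 40 min and 0.29 (adjusted p = 0.687) with that of 10 min.

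Against Nfkb1[SS/AA], the response of Map3k8[D270A] cells was higher by at least 1 for 1 gene (0.00835%), Gm6402, and lower for 8 (0.0668%). Gm6402 (1.08, adjusted p = 0.0105) did not pass in a limma fit of only the libraries compared (adjusted p = 0.0923), and its difference fell just under 1 (lowest 0.97) without Map3k8[D270A] replicate 1 with LPS or unstimulated replicate 2, and without Nfkb1[SS/AA] replicate 6 with LPS or unstimulated replicates 2 or 5. The 8 were Egr1 (-2.36), Pde4b (-1.45), Adamts1 (-1.37), Maff (-1.12), Il1a (-1.11), Il1b (-1.09), Btg2 (-1.06), and Csrnp1 (-1.03). Over the 74 genes, the median difference was -0.50 against Nfkb1[SS/AA] and -0.22 against PD0325901. The genotype or inhibitor and the experiment cannot be told apart in these comparisons.

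The 53 genes were followed at 1 and 2 h in Map3k8[D270A] cells, with 6 libraries at each time. They were chosen at 0.5 h and all times share the unstimulated libraries, so this is a description. The median difference from unstimulated cells was 1.63 at 0.5 h, 2.62 at 1 h, and 2.18 at 2 h. The mean level was highest at 0.5 h for 8 genes, at 1 h for 31, and at 2 h for 14. At 2 h, 10 of the 53 were below their unstimulated mean. Fos went from 2.02 to -0.41 at 1 h and -1.82 at 2 h, Ier2 from 1.72 to 0.87 and -0.49, and Btg2 from 1.80 to 0.77 and -0.90. Zfp36 also peaked at 0.5 h and stood at 1.82 and 1.07. Cxcl1 went from 3.78 to 5.13 and 3.37, and Il1b from 2.54 to 5.01 and 3.57. Mir155hg went from 1.28 to 4.88 and 5.005, and Cd69 from 1.63 to 2.12 and 4.64.

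Of the 13 genes with a smaller early response, 8 were further above the unstimulated level at 1 h than at 0.5 h in Map3k8[D270A] cells. Kdm6b went from 0.78 to 3.30, Maff from 1.03 to 3.02, and Egr2 from 1.20 to 2.13. Egr1 was back at 0.00 at 1 h, with libraries between 7.78 and 8.45, and at -0.95 at 2 h.

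**Figure D5:**
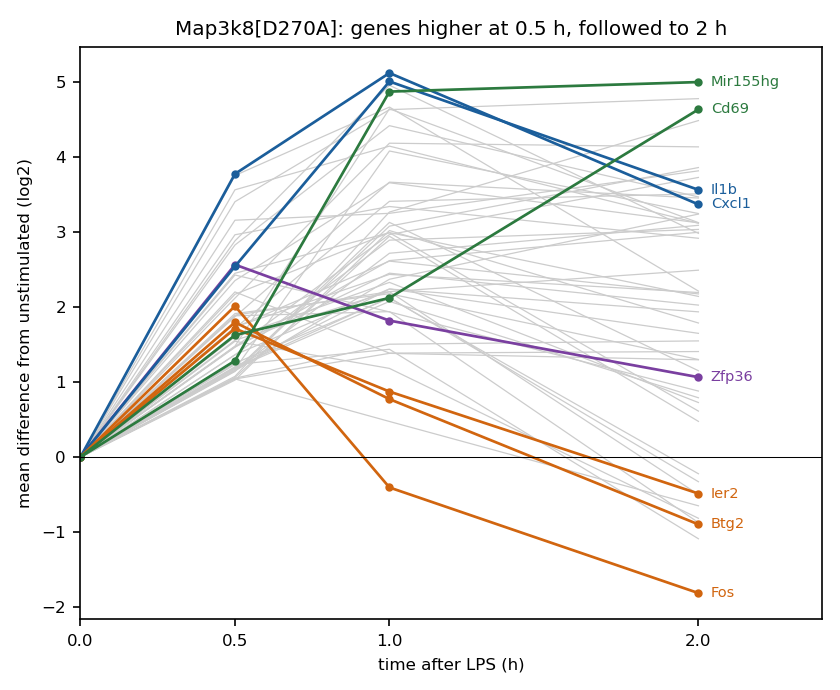
Mean difference from unstimulated cells (log2; vertical axis) against time after LPS (h) in Map3k8[D270A] cells for the 53 genes that were higher at 0.5 h, 1 line per gene, each point a mean of 6 libraries. Coloured lines are named examples chosen after their values were seen; Fos falls to -1.82 at 2 h, Cxcl1 peaks at 5.13 at 1 h and Mir155hg reaches 5.005 at 2 h.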

How the data were processed

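Reads of BMDM libraries were aligned with STAR 2.5.1b to mm10, and expression per gene was estimated with RSEM 1.2.29 and normalized with DESeq2 1.10.1, per the labels. The methods of the study name other versions of STAR and RSEM. The authors deposited 1 log2 value per gene and library for 18098 genes. Counts cannot be read from them, so sequencing depth is unknown and precision rests on the spread between libraries. With the genes split into 3 equal parts by level, the median SD within a group was 0.123 in the lowest part, 0.0722 in the middle part, and 0.0628 in the highest. The transformation is not given in the sources used, nor is its treatment of low values. No pseudocount was needed.

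Groups were taken from the labels and compared by the moderated test of limma 3.58.1 (R 4.3.3) on the deposited log2 values with 1 mean per group and a shared spread. One fit took 62 libraries (Map3k8[D270A], WT, and Elk1/Elk4 double-mutant cells) and the 11884 genes whose linear value reached 10 in 4 or more of them. Another took all libraries and the 11971 genes that did so in 3 or more, and served the comparisons with PD0325901 and Nfkb1[SS/AA]. A value above 25 (1 in the table, Fosb in a library not compared here) was treated as missing. Adjusted p values are 2-sided, from limma, corrected by Benjamini-Hochberg over all genes tested.

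The members, gene lists, and rules were chosen with earlier results of these data known. Genes were named by rule: the 15 with the largest rise and no overlap in Map3k8[D270A] cells, up to 10 with the largest fall past the threshold (0 reached it), up to 10 with the most negative and 5 with the most positive interaction, the 5 raised in both genotypes with the interaction nearest 0, the extremes of each list, and Map3k8. Other genes were named after their values were seen, and 1 gene is not reported here.

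Replicate numbers were taken to pair the libraries, since every same-numbered pair correlated. The main fits held no term for this pairing, which entered only as the replicate block among the alternatives. Deviations from the group means of same-numbered unstimulated and LPS libraries correlated at 0.428 to 0.761 in Map3k8[D270A] and 0.453 to 0.793 in WT cells, over genes of 6 pairs each. Those of differently numbered libraries reached 0.449 and 0.548, and 6 of 6 Map3k8[D270A] and 4 of 6 WT libraries correlated best with their own number. Alternatives were other filters, thresholds, scalings, a variance trend, fewer libraries, the replicate block, each library left out, the 2 replicate sets and their crossing, and other PD0325901 controls. Promoters are from the RefSeq table of GRCm38.p6.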

Additional observations from a re-analysis of the deposited data

Results flagged for a closer look

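In groups of 6 libraries, 1 library stood apart for 12 of the 124 groups examined (31 genes), by a gap to its neighbour that exceeded Dixon's 95% limit as a share of the group's range, which chance gives in about 1 of 20 groups. Map3k8[D270A] replicate 4 with LPS was the highest for Cxcl2 (gap 0.745 of the range), Tnf (0.732), Socs3 (0.699), Dusp2 (0.747), Nfkbia (0.663), Maff (0.787), and Cd69 (0.653). Without it 52 genes were higher, 51 of them among the 53. Unstimulated Map3k8[D270A] replicate 4 was the highest for Tnfaip3 (0.661) and the lowest for Tagap (0.634), and unstimulated replicate 2 was the highest for Ier2 (0.663). Map3k8[D270A] replicate 1 with LPS was the highest for Fosb (0.632), and WT replicate 8 with LPS for Egr1 (0.79).

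The LPS response at 0.5 h differed between the genotypes by the test of the difference (limma, adjusted p below 0.05) for 13 genes, each lower in Map3k8[D270A] cells: Egr1 (-4.58), Egr3 (-1.98), Ier2 (-1.62), Fosb (-1.47), Nr4a1 (-1.31), Egr2 (-1.17), Fos (-1.14), Btg2 (-1.06), Maff (-1.01), Kdm6b (-0.90), Ier3 (-0.68), Junb (-0.68), and Ppp1r15a (-0.61).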

How the results depend on the processing

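For the response of Map3k8[D270A] cells, that of WT cells, and their difference, the direction of the counts was kept. Among the rises of the 74 genes in Map3k8[D270A] cells and the 13 differences, no called gene changed sign. Other named genes were not examined singly. Against PD0325901, Fos turned from -1.04 to 0.27 and Fabp7 from 4.26 to -0.28 with the control of 10 min. With the replicate block the counts stayed at 53 higher and 0 lower in Map3k8[D270A] cells, 74 and 0 in WT cells, and 0 higher and 9 lower for the difference of responses. Among the calls examined singly, the block ended that of Kdm6b (-0.90, adjusted p = 0.0725) and no other. These were the rises of the 74 genes in Map3k8[D270A] cells, the 13 differences, and 17 differences against PD0325901 or Nfkb1[SS/AA]. Other named calls, such as falling genes and differences without LPS, were not examined singly with the block. Leaving out 1 library at a time gave 52 to 56 higher and 0 lower in Map3k8[D270A] cells, 70 to 80 and 0 in WT cells, 0 higher and 8 to 11 lower for the difference, 69 to 72 and 26 to 33 with PD0325901, 84 to 92 and 0 to 7 in Nfkb1[SS/AA] cells (7 without unstimulated replicate 1), 27 to 31 and 5 to 7 for Map3k8[D270A] against PD0325901, and 0 to 5 and 7 to 11 against Nfkb1[SS/AA] (5 higher without unstimulated Nfkb1[SS/AA] replicate 1). In the counts that follow, higher precedes lower. With a threshold of 1.5-fold they were 98 and 3 in Map3k8[D270A], 143 and 6 in WT, 127 and 70 with PD0325901, 156 and 29 in Nfkb1[SS/AA], 51 and 14 against PD0325901, and 3 and 38 against Nfkb1[SS/AA]. With a threshold at the natural logarithm of 2 they were 81 and 1, 115 and 2, 111 and 55, 137 and 21, and, against Nfkb1[SS/AA], 3 and 22. At the adjusted p alone they were 465 and 139, 929 and 453, 1123 and 666, 1024 and 727, 64 and 87, and 20 and 92. In a fit of its own libraries, Map3k8[D270A] had 1 gene lower (Gm5512), and against Nfkb1[SS/AA] 0 were higher. Without a filter, 59 genes were lower with PD0325901 and 60 higher against it; with a linear value of at least 50, these were 12 and 10, and 0 were higher against Nfkb1[SS/AA]. Median centring gave 3 and quantile normalization 2 genes lower in Nfkb1[SS/AA]. The first replicate set gave 3 and the second 16 genes lower for the difference of responses, and the crossed sets, added after seeing the data, 24 with WT 7 to 9 and 5 with WT 4 to 6, and WT 7 to 9 gave 1 gene lower in WT. With PD0325901 alone for 10 min as control, chosen after seeing the data, 8 genes were lower with PD0325901, and 4 were higher and 0 lower against it; with 70 min, 13 were lower. Beyond the changed thresholds and the smaller sets of libraries or genes, the cause was not tested. Depth is unknown, so low genes such as Cxcl3, Spry1, and Mir155hg are limited by a precision that these files do not give.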
